A study of Mus musculus with 15 samples.

Results

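The genes described here are the ligands, receptors, co-receptors and secreted antagonists of the Wnt pathway, together with beta-catenin, a nuclear partner and the feedback genes that the pathway itself switches on. A probe set was taken as a member where its only annotated symbol began with Wnt, Fzd, Sfrp or Dkk followed by a number, or was Frzb, Wif1, Lrp5, Lrp6, Axin2, Lef1, Tcf7, Apcdd1, Nkd1 or Ctnnb1. This gave 98 of 45101 probe sets and 47 genes: 19 Wnt ligands, 10 Frizzled receptors, 5 secreted Frizzled-related proteins, 4 Dickkopf genes, Wif1, Lrp5, Lrp6, Ctnnb1, Lef1, Axin2, Apcdd1, Nkd1 and Fzd10os, a transcript of the strand opposite Fzd10 that entered through its name. Tcf7 was not analysed here.

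RNA came from male C57BL6J mice aged 10 to 12 weeks, in 4 groups of Affymetrix mouse genome arrays. Brain cells sorted by flow cytometry as smooth muscle cells and pericytes came from 4 Notch3 +/- mice (arrays E, G, I and H) and 5 Notch3 -/- mice (A, B, C, D and F). Aorta explants, pieces of the whole vessel wall, gave 3 Notch3 +/- arrays (5556, 5561 and 6166) and 3 Notch3 -/- arrays (5558, 5559 and 6167). The controls therefore carried 1 mutant Notch3 allele, and no wild-type group was analysed here. Notch3 is the Notch receptor of arterial smooth muscle cells and pericytes, and the design text sets its loss against the heterozygous state.

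Each value is the linear intensity of a probe set, which the authors had brought to a common target of 150 on every array, and no detection calls were among the values used here. Differences were tested with limma on log2(intensity + 16), so that a fold change understates that of a dim probe set. The p-values were adjusted by the Benjamini-Hochberg method over the 22519 brighter probe sets of each comparison, and a difference passed at 5%. A gene is given at its brightest probe set unless another is named, and levels of different genes are not compared, since each probe set has its own response. The targeted gene followed its label in every group: in brain its intensity was 2616 ± 222 (SD, n = 4) for +/- mice and 210 ± 37.0 (n = 5) for -/- mice, and in aorta it was 401 ± 47.2 (n = 3) for +/- and 108 ± 34.1 (n = 3) for -/-. Arrays of a group correlated at r between 0.932 and 0.981 over all probe sets. The labels do not say that the aorta arrays of a group came from separate mice, so their p-values measure the spread between arrays, which may be technical.

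Wnt proteins are secreted lipid-modified ligands that bind a Frizzled receptor together with Lrp5 or Lrp6. In the canonical branch this stops the destruction of beta-catenin (Ctnnb1), which then joins TCF/LEF factors on DNA and switches on feedback genes such as Axin2, Nkd1 and Apcdd1. Wnt5a and Wnt5b are best known for beta-catenin-independent signalling. The Sfrp proteins and Wif1 bind Wnts outside the cell, and Dkk1 and its relatives act on the Lrp co-receptors. In the brain, canonical signalling in endothelium is needed for the blood-brain barrier, whereas in arteries the pathway has been studied mostly in the growth and calcification of smooth muscle.

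Promoter windows were read because several members moved together between tissues. RefSeq windows of 300 bases (250 before and 50 after an annotated start, build GRCm38.p6) were matched by symbol for 31 of the 47 genes, in 38 windows. They were searched on both strands for the TCF/LEF core CTTTGAT, the site of the factors that carry beta-catenin, and for the RBPJ core TGGGAA, the site of the Notch effector; the cores do not overlap. Printed 5′ to 3′ along the gene's strand, with a matched core in capitals, are the windows of a canonical feedback gene (Axin2), of its nuclear factor (Lef1, first annotated start), of the ligand with the smallest genotype p in brain (Wnt5b, the start with a TCF/LEF core) and of an antagonist high in aorta (Sfrp2).
Axin2, chr11:108920099-108920398, plus strand: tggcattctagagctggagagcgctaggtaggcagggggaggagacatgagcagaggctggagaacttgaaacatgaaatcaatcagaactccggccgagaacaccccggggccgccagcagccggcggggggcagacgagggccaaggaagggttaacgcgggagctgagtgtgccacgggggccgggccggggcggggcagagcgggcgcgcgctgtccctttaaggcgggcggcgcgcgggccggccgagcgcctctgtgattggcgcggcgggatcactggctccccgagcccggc
Lef1, chr3:131110047-131110346, plus strand: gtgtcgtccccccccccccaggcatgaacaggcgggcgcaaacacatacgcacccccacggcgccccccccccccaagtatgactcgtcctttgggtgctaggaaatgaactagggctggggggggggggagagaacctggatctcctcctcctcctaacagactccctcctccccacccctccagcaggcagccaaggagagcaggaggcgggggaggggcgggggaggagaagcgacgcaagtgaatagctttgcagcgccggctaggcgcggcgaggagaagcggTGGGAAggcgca
Wnt5b, chr6:119449337-119449636, minus strand: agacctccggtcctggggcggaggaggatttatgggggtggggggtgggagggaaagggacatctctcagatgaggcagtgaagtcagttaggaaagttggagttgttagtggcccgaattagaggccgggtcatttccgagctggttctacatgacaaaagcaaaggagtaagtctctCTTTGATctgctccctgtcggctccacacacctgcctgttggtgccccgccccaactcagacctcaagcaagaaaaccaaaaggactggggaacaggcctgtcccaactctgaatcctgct
Sfrp2, chr3:83766071-83766370, plus strand: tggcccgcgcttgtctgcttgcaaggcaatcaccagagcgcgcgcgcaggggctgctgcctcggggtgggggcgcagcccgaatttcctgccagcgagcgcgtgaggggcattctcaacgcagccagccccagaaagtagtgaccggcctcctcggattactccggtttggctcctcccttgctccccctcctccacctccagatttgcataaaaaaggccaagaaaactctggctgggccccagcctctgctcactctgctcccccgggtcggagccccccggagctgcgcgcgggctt
The TCF/LEF core lay in 2 of the 38 member windows (5.26%), at -71 from a start of Wnt5b and, on the other strand, at -51 from that of Wnt11, and in 3.73% of all 32851 windows of the table. The RBPJ core lay in 7 member windows (18.4%), those of 5 genes (Frzb, Lef1, Wnt5b at another start, Wnt9a and Wnt3), and in 25.6% of all windows; in the Lef1 window printed here it begins 38 bases after the start. The windows of Axin2 and Sfrp2 held neither core. Among genes higher in brain than in aorta in both genotypes, 6 had windows, and 1 of these held a TCF/LEF core and 2 an RBPJ core; among genes lower in brain, 7 had windows, with 0 and 2. The median GC content was 66% in both sets and 52.7% over all windows. These matches describe letters and were not tested as sites.

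The brain sort and the aorta differed in most of the members that could be tested, with ligand antagonists higher in aorta and canonical feedback genes higher in brain. In Notch3 +/- arrays, 10 of 31 tested genes were higher in brain and 14 lower; in Notch3 -/- arrays, 13 of 32 were higher and 15 lower. Of the probe sets, 33.3% were higher and 37.3% lower in Notch3 +/-, where over all probe sets tested 26.5% were higher and 25.2% lower; in Notch3 -/- these shares were 37.7% and 45.3%, against 33.6% and 28.9%. The median absolute log2 difference of member probe sets was 1.27 in Notch3 +/- and 1.55 in Notch3 -/-, against 0.61 and 0.64 over all probe sets tested. At the brightest set of each member gene it was 1.45 and 1.69. The 24 genes that passed in Notch3 +/- also passed with the same sign in Notch3 -/-, in arrays that the first comparison did not use. Over all probe sets, 11661 of 22519 passed in Notch3 +/- and 14076 of 22519 in Notch3 -/-. How many of them passed in both genotypes was not counted, so this agreement cannot be called particular to the members. A gene bright in 1 tissue and dim in the other passes the brightness filter through the bright tissue. The member counts therefore describe the tested members and not all 47. Tissue cannot be told apart from the sort, nor from RNA extraction, which used Trizol for aorta alone, and in such bulk samples fewer cells of a type and less RNA per cell cannot be told apart.

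**Figure D1:**
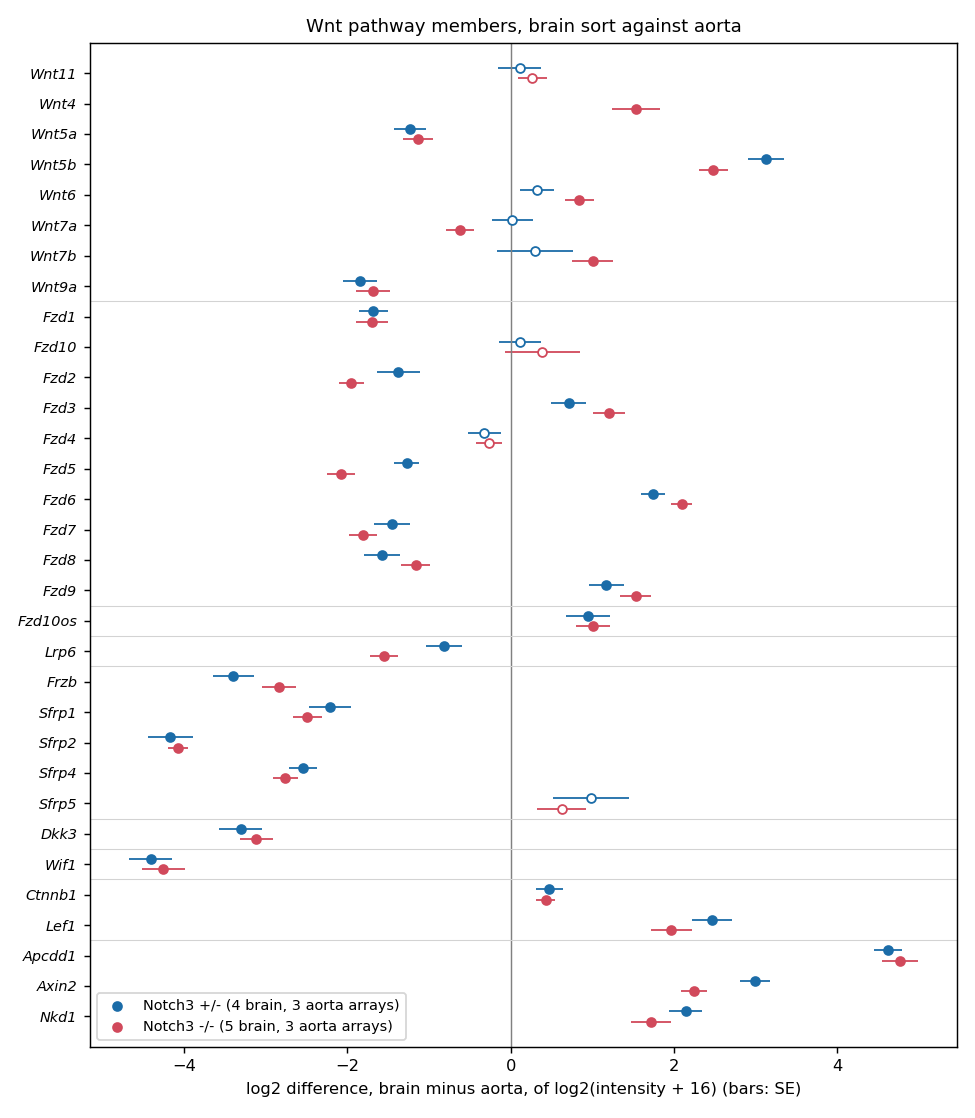
Each point is the brain minus aorta difference of log2(intensity + 16) for 1 gene at its brightest probe set, in Notch3 +/- (blue) and Notch3 -/- (red) arrays, with its SE as a bar; filled points passed 5% after adjustment and open points did not. The feedback genes Apcdd1, Axin2 and Nkd1 lie right of 0 in both genotypes, and Wif1, Dkk3, Sfrp1, Sfrp2, Sfrp4 and Frzb lie left of it.

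All 3 feedback genes were higher in brain. Apcdd1, a membrane inhibitor that canonical signalling induces, read 5391, 5939, 7210 and 7025 in Notch3 +/- brain and 276, 204 and 255 in Notch3 +/- aorta. Its Notch3 -/- values were 10410, 7376, 5620, 4444 and 6911 in brain and 208, 273 and 210 in aorta. Its difference, 24.6-fold in Notch3 +/- (log2 4.62, SE 0.17, limma adjusted p = 1.45e-08) and 27.3-fold in Notch3 -/- (log2 4.77, SE 0.22, adjusted p = 8.71e-10), was the largest of any member towards brain. Its brightest set carries the suffix _x_at, which marks probes that may match other transcripts; the other 4 tested sets of Apcdd1 were higher in brain too, by 1.25 to 3.34 in Notch3 +/- and by 1.29 to 3.21 in Notch3 -/-. Axin2, the scaffold of the beta-catenin destruction complex and a general canonical target, read 563, 568, 693 and 442 in Notch3 +/- brain and 53.1, 63.7 and 53.2 in aorta. The Notch3 -/- arrays gave 583, 446, 429, 364 and 438 in brain and 78.6, 78.0 and 88.2 in aorta. Every brain array was thus several times above every aorta array, with a log2 difference of 2.99 (SE 0.18, adjusted p = 4.54e-07) in Notch3 +/- and 2.25 (SE 0.16, adjusted p = 4.3e-08) in Notch3 -/-. Nkd1, which inhibits Dishevelled, read 1173 ± 151 (SD, n = 4) and 905 ± 327 (n = 5) in brain and 259 ± 83.5 (n = 3) and 256 ± 69.5 (n = 3) in aorta, for Notch3 +/- and -/- in that order. Its differences were 2.14 and 1.72, but its 3 dimmer tested sets ran from -0.17 to 0.74 in Notch3 +/- and from -0.52 to 0.55 in Notch3 -/-, where the lowest passed as lower in brain.

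Of the effectors, Lef1, a TCF/LEF transcription factor and itself a canonical target, read 147, 193, 253 and 218 in Notch3 +/- brain and 23.9, 13.4 and 34.6 in aorta. The values in Notch3 -/- were 228, 125, 134, 110 and 186 in brain and 26.5, 43.1 and 15.1 in aorta. It was higher in brain by 2.46 (SE 0.25, limma adjusted p = 1.3e-05) and 1.97 (SE 0.25, adjusted p = 1.45e-05), or by 3.10 and 2.50 with a pseudocount of 1, since most of its aorta values lay below the filter intensity (41.8 in Notch3 +/- and 42.1 in Notch3 -/-). Ctnnb1, beta-catenin, read 8959 to 12088 over all brain arrays and 7361 to 8263 over all aorta arrays. It was higher in brain by 0.47 (limma adjusted p = 0.0295) and 0.43 (adjusted p = 0.00612). A dimmer Ctnnb1 set differed the other way, from 74.7 to 152 in brain and from 493 to 627 in aorta, with log2 differences of -2.01 and -2.23 that passed as lower in brain. The direction for Ctnnb1 therefore depends on the probe set, and the brightest one alone gave the call above.

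Ligands split between the tissues. Wnt5b, a ligand of beta-catenin-independent signalling, read 698, 755, 604 and 1148 in Notch3 +/- brain and 74.0, 87.3 and 64.1 in Notch3 +/- aorta. On Notch3 -/- arrays it read 531, 567, 350, 363 and 433 in brain and 58.3, 69.9 and 69.2 in aorta. It was higher in brain by 3.13 (SE 0.22, limma adjusted p = 1.11e-06) and by 2.48 (SE 0.18, adjusted p = 5.1e-08), and its dimmer set was higher by 1.81 where it was tested, in Notch3 +/-. The brightest Wnt5b set also carries the suffix _x_at, for probes that may match other transcripts. Wnt5a, a close relative of Wnt5b, read 54.4 to 88.3 in Notch3 +/- brain, 65.6 to 125 in Notch3 -/- brain, 170 to 187 in Notch3 +/- aorta and 212 to 245 in Notch3 -/- aorta. It was lower in brain, by -1.23 and -1.14 on the log2 scale, so that these close paralogs differed between the tissues in opposite directions. A second Wnt5a set did not pass in either genotype, at 0.53 and 0.29. Wnt9a, a canonical ligand, was lower in brain by -1.85 and -1.69, with 40.7 to 102 over all brain arrays and 208 to 284 over all aorta arrays.

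The remaining ligands were dimmer or passed in Notch3 -/- arrays alone. There Wnt4 was higher in brain by 1.53, Wnt6 by 0.84 and Wnt7b by 1.0, and Wnt7a was lower by -0.62 (limma adjusted p = 0.000479, 0.000885, 0.00316 and 0.006). Wnt4 read 21.5, 18.0 and 8.05 in Notch3 -/- aorta, all below the filter intensity of 42.1, so it was tested through its brain values. In Notch3 +/- Wnt4 was not tested, and the differences of Wnt6 (0.32), Wnt7b (0.29) and Wnt7a (0.02) did not pass. Whether a tissue difference depends on genotype is the same quantity as the interaction given further on, which passed for no member tested. Wnt4 was too dim to be tested in that interaction. For Wnt7a, a ligand of brain endothelium made by neural cells, a dimmer set that was not tested between tissues read 44.7 to 104 in brain and 1.12 to 1.66 in aorta, against 67.9 to 136 and 75.6 to 157 at the brightest set, so its probe sets do not give 1 direction. Wnt11 passed in neither genotype (0.11 and 0.27). Wnt2 and Wnt3a passed the filter in the aorta comparison alone, with highest values of 59.7 and 68.8 on any array, and 9 ligand genes (Wnt1, Wnt2b, Wnt3, Wnt8a, Wnt8b, Wnt9b, Wnt10a, Wnt10b and Wnt16) were too dim to be tested anywhere.

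Among the 10 Frizzled receptors, 3 were higher in brain and 5 lower in both genotypes. Fzd6 read 1608 to 1970 in Notch3 +/- brain and 1982 to 2744 in Notch3 -/- brain, against 487 to 580 over all aorta arrays. It was higher in brain by 1.75 (SE 0.15, limma adjusted p = 3.75e-06) and 2.09 (SE 0.13, adjusted p = 1.23e-08), although a dimmer set gave 0.14 and -0.03 and did not pass. Fzd9, whose aorta values lay between 21.4 and 46.7, was higher in brain by 1.17 and 1.53, and Fzd3, a receptor of axon guidance, by 0.71 and 1.20. In the other direction, Fzd1 read 276 to 577 over all brain arrays and 1170 to 1509 over all aorta arrays, lower in brain by -1.68 and -1.70. Fzd2 read 418 ± 110 (SD, n = 4) and 363 ± 54.7 (n = 5) in brain and 1112 ± 348 (n = 3) and 1455 ± 250 (n = 3) in aorta, for Notch3 +/- and -/- in that order. Fzd2 (-1.37 and -1.95), Fzd5 (-1.27 and -2.08), Fzd7 (-1.45 and -1.81) and Fzd8 (-1.58 and -1.16) were lower as well. For Fzd5 a second set gave 0.12 and 0.08 and did not pass. Fzd4, the receptor of Norrin in retinal vessels, did not pass, at -0.32 (SE 0.20) and -0.26 (SE 0.16), and neither did Fzd10, at 0.11 and 0.39. Fzd10os was higher in brain by 0.95 and 1.01. The co-receptor Lrp6 was lower in brain by -0.82 and -1.55, while Lrp5 was too dim to be tested, with at most 43.3 on any array.

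Secreted antagonists were higher in aorta in each case that passed. Sfrp2 read 103, 102, 240 and 204 in Notch3 +/- brain and 2857, 2889 and 3262 in Notch3 +/- aorta. In Notch3 -/- it read 165, 189, 209, 192 and 181 in brain and 3477, 3163 and 3546 in aorta. Every aorta array was far brighter than any brain array, and the log2 difference was -4.17 (SE 0.27, limma adjusted p = 7e-07) in Notch3 +/- and -4.07 (SE 0.12, adjusted p = 1.92e-11) in Notch3 -/-. Wif1 read 0.978, 16.9, 20.1 and 7.94 in Notch3 +/- brain and 558, 551 and 521 in aorta. For Notch3 -/- the values were 0.328, 11.5, 22.1, 20.9 and 21.8 in brain and 589, 533 and 541 in aorta. All its brain values lay below the filter intensity, so its size depends on the pseudocount: -4.41 and -4.25 (adjusted p = 3.75e-07 and 1.27e-08), or -5.91 and -5.61 with a pseudocount of 1. Frzb, a secreted Frizzled-related protein first found in cartilage, read 37.0, 28.8, 73.7 and 55.1 in Notch3 +/- brain and 602, 799 and 547 in aorta. In Notch3 -/- it read 50.4, 66.3, 45.5, 66.3 and 76.4 in brain and 614, 366 and 652 in aorta, and its differences were -3.40 and -2.84.

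Dkk3, a divergent Dickkopf protein whose role in Wnt signalling is debated, read 305, 349, 316 and 140 in Notch3 +/- brain and 2703, 2703 and 2827 in Notch3 +/- aorta. Notch3 -/- arrays read 197, 291, 435, 377 and 340 in brain and 3009, 2829 and 2782 in aorta. It was lower in brain by -3.31 (SE 0.27, limma adjusted p = 2.84e-06) and -3.11 (SE 0.20, adjusted p = 1.91e-08), and its second set by -2.51 and -2.57. Sfrp4 read 134, 106, 117 and 97.8 in Notch3 +/- brain and 650, 859 and 711 in aorta, and in Notch3 -/- 131, 115, 141, 156 and 103 in brain and 885, 940 and 1064 in aorta. Its differences were -2.54 (adjusted p = 9.05e-07) and -2.76 (adjusted p = 4.36e-09). Sfrp1 read 313, 241, 153 and 128 in Notch3 +/- brain and 925, 988 and 1003 in aorta, and in Notch3 -/- 249, 124, 179, 156 and 167 in brain and 1057, 986 and 1054 in aorta. Its differences were -2.21 and -2.49, and its other tested sets were lower in brain as well, from -2.95 to -1.20 in Notch3 +/- and from -2.83 to -0.86 in Notch3 -/-. Sfrp5 alone of the 5 family members did not pass, at 0.99 (SE 0.46, adjusted p = 0.0956) and 0.62 (SE 0.30, adjusted p = 0.0828). Dkk1, Dkk2 and Dkk4 were too dim to be tested, with a highest value of 78.0, for Dkk2 in the Notch3 -/- brain array C.

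**Figure D2:**
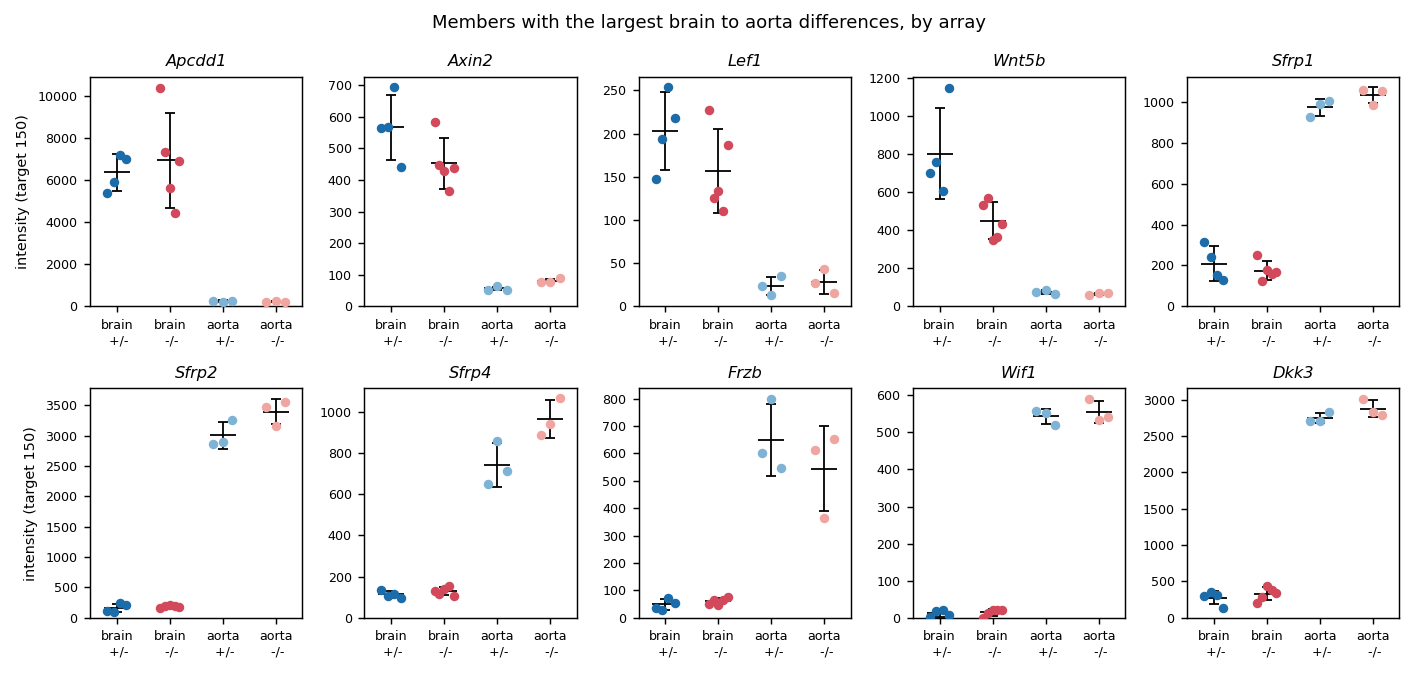
Each panel shows 1 gene, with the linear intensity (scaled to a target of 150) of every array in the 4 groups as points, the group mean as a line and the SD as bars; each y axis starts at 0 and has its own range. Apcdd1, Axin2, Lef1 and Wnt5b are higher in every brain array than in any aorta array, and the 5 secreted antagonists and Dkk3 are the reverse.

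The cell type markers differed between the tissues on a similar scale. Of 14 endothelial markers, 13 were higher in brain and 1 lower in each genotype; their summed intensity ran from 24247 to 38983 in Notch3 +/- brain and from 29744 to 34936 in Notch3 -/- brain, against 3771 to 4649 and 3759 to 4281 in aorta, where Ocln was under 50 on every array. Of 10 tested genes listed as responding, in either direction, to canonical signalling in brain endothelium, 9 were higher in brain in each genotype. Their medians were 4.61 and 4.81. Cldn5, a tight junction protein, read 15991 ± 4629 (SD, n = 4) in Notch3 +/- brain and 354 ± 29.1 (n = 3) in Notch3 +/- aorta. Astrocyte markers were higher in brain for 9 of 9, with sums of 14288 to 35584 over all brain arrays and 2222 to 3512 over all aorta arrays. Fibroblast markers were lower in brain for 10 of 11, with sums of 6364 to 14066 over all brain arrays and 47540 to 51338 over all aorta arrays. Of the smooth muscle markers, 7 were lower and 2 higher of 9 in Notch3 +/-, with a median of -1.44, and 6 lower and 1 higher of 8 in Notch3 -/-, with a median of -2.88. Their sums, 25333 to 44186 in Notch3 +/- brain, 12641 to 20866 in Notch3 -/- brain and 42008 to 47446 over all aorta arrays, rest in brain largely on Acta2, smooth muscle actin, with means of 20581 in Notch3 +/- brain and 11415 in Notch3 +/- aorta. Of 9 tested pericyte markers 7 were higher and 1 lower in Notch3 +/-, and 6 higher and 2 lower in Notch3 -/-; they summed to 26090 to 59120 over all brain arrays and 18214 to 21545 over all aorta arrays, where Vtn and Higd1b were under 50. Choroid plexus markers (19746 to 45941 against 79 to 123, with all 8 under 50 in aorta) and oligodendrocyte markers (27522 to 44843 against 344 to 794) were brighter in brain, and adipocyte markers (20 to 77, with all 5 under 50, against 3290 to 7246) in aorta. Microglial and macrophage markers were divided, with 2 higher and 2 lower of 7 in each genotype and medians of 0.16 and 0.27; their higher sums in brain (9205 to 17360 against 3771 to 5214) rest largely on Csf1r, while Tmem119 was lower in brain by -1.53 and -1.34. In Notch3 +/- brain the choroid plexus sum rests largely on Ttr (mean 28772) and the oligodendrocyte sum on Mbp (mean 22389). The rest of the choroid plexus list had means from 58.7 (Foxj1) to 1618 (Clic6) there. Cldn5 made the largest part of the endothelial sum. Pecam1 was the endothelial marker lower in brain, with means of 99.5 in Notch3 +/- brain and 378 in Notch3 +/- aorta. Some genes that mark endothelium, astrocytes, oligodendrocytes and choroid plexus were thus bright in the brain arrays beside those of the sorted type. The part of these cell types in the differences of the Wnt members was not tested.

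Between Notch3 -/- and Notch3 +/- brain, no member passed the threshold. The member with the smallest p was Wnt5b, followed by Wnt4, Lrp6, Fzd6 and Wnt6. With limma, 0 of 53 tested member probe sets passed 5%, while 8 had an unadjusted p under 0.05, as did 2115 (9.39%) of all 22519 tested. Over all of them 32 passed, which is 0.142%, and that count was 10 without array H, 14 without D, 15 without G and 21 without C. At the brightest set, 0 of 31 genes passed and 7 had an unadjusted p under 0.05. Of these 31 genes, 17 were nominally higher in Notch3 -/- and 14 lower, with a median difference of 0.08. Over the 53 member probe sets, 25 were nominally higher and 28 lower, with a median of -0.02, against 0.01 over all probe sets. The SE of a member's difference had a median of 0.21 on the log2 scale and ran from 0.15 to 0.43. The 2 groups did not overlap for 5 of the 53 probe sets (9.43%), where 3.3% of all probe sets tested did not overlap.

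Wnt5b read 698, 755, 604 and 1148 in Notch3 +/- brain and 531, 567, 350, 363 and 433 in Notch3 -/- brain. The groups did not overlap, and array H carried the highest value. The log2 difference was -0.80 (SE 0.21), with an unadjusted p of 0.00163 and a limma adjusted p of 0.234, and without array H it was -0.61. A single fit of all 15 arrays, which pools the spread of both tissues, gave an adjusted p of 0.0551, and over all settings the adjusted p ran from 0.0551 to 0.51. The dimmer Wnt5b set differed in the same direction, by -0.64 (unadjusted p = 0.0415). Wnt4, a ligand of kidney and gonad development, read 45.5, 22.0, 42.7 and 11 in Notch3 +/- brain and 127, 104, 66.2, 61.4 and 39.9 in Notch3 -/- brain. The groups overlapped at 1 array, and 3 of the 4 Notch3 +/- values lay below the filter intensity of 43.2, so the set was tested through its Notch3 -/- values. The log2 difference was 1.05 (SE 0.31, unadjusted p = 0.00486, adjusted p = 0.324).

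Lrp6 read 212, 169, 183 and 329 in Notch3 +/- brain and 174, 129, 111, 108 and 151 in Notch3 -/- brain. The groups overlapped between 169 and 174, array H was again the highest, and the difference was -0.64 (SE 0.21, unadjusted p = 0.00807, limma adjusted p = 0.35). Fzd6 read 1795, 1970, 1608 and 1759 in Notch3 +/- brain and 2292, 2744, 2390, 1982 and 2499 in Notch3 -/- brain. The groups were separated by a narrow gap, and the difference was 0.41 (SE 0.15, unadjusted p = 0.0135, adjusted p = 0.402), but its dimmer sets gave -0.04 and 0.24, so the direction was not shared by all of them. Wnt6 read 89.8, 71.6, 97.3 and 85.6 in Notch3 +/- brain and 123, 112, 114, 136 and 101 in Notch3 -/- brain, without overlap, and differed by 0.38 (SE 0.17, unadjusted p = 0.0359, adjusted p = 0.499). Fzd5 did not overlap either, with 134 to 141 in Notch3 +/- and 75.4 to 130 in Notch3 -/- brain, and differed by -0.38 (SE 0.17, unadjusted p = 0.0479, adjusted p = 0.523). The feedback genes gave -0.31 (SE 0.17) for Axin2, -0.43 (SE 0.22) for Nkd1 and 0.07 (SE 0.22) for Apcdd1, and Lef1 gave -0.36 (SE 0.22), none of which passed. Ctnnb1 gave -0.02 (SE 0.15), and the antagonists Sfrp2 (0.27), Sfrp4 (0.16), Sfrp1 (-0.19), Frzb (0.29) and Dkk3 (0.26) did not pass. The tested probe sets of Apcdd1, Nkd1 and Sfrp1 were mixed in sign, so their direction here holds for the brightest set alone.

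Markers moved between the brain groups as well. Of 8 tested smooth muscle markers all were nominally lower in Notch3 -/-, 4 passed, and the median was -0.95; Myh11, smooth muscle myosin, had a mean of 3233 ± 832 (SD, n = 4) on the Notch3 +/- brain arrays, against 1036 ± 368 (n = 5) for Notch3 -/-. The summed intensity of this list ran from 25333 to 44186 in Notch3 +/- and from 12641 to 20866 in Notch3 -/-, with Myocd under 50 on every brain array. Of 10 tested fibroblast markers 8 were nominally higher in Notch3 -/-, none passed while 6 had an unadjusted p under 0.05, and the median was 0.59, with sums of 6364 to 9483 against 9391 to 14066. Of 9 tested pericyte markers 7 were nominally lower in Notch3 -/-, 3 had an unadjusted p under 0.05 and 1 passed, which is Notch3 itself, and the median was -0.43; Rgs5, a regulator of G protein signalling, had means of 13485 and 9961. Endothelial markers had a median of -0.04 over 14 tested, and 0 passed. The part of these cell types in the values of Wnt5b, Wnt4 and Lrp6 was not tested.

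In aorta, too, no member passed. The smallest p values belonged to Fzd5, Wnt5a, Sfrp4, Axin2 and Fzd7, all nominally higher in Notch3 -/-. With limma, 0 of 55 tested member probe sets passed 5% and 6 had an unadjusted p under 0.05; over all 22519 probe sets 0 passed, which is 0.0%, and 980 (4.35%) had an unadjusted p under 0.05 (the 0 became 7 without array 5556 or array 6167 and 1 without 5559, none of them a member). At the brightest set, 18 of 31 genes were nominally higher and 13 lower, with a median of 0.06 and a median SE of 0.15. Over the 55 member probe sets the median was 0.04, against 0.00 over all probe sets. The groups did not overlap for 8 of the 55 probe sets (14.5%), 7 higher and 1 lower, where 9.47% of all probe sets tested did not overlap.

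Fzd5 read 359, 368 and 342 in Notch3 +/- aorta and 480, 524 and 450 in Notch3 -/- aorta. The groups were apart, and the difference was 0.43 (SE 0.10), with an unadjusted p of 0.00204 and a limma adjusted p of 0.744; its second set gave 0.04. Wnt5a read 187, 171 and 170 against 232, 212 and 245 and differed by 0.36 (SE 0.11, unadjusted p = 0.0108, adjusted p = 0.999), while a second set gave -0.00195. Sfrp4 read 650, 859 and 711 against 885, 940 and 1064 and differed by 0.38 (SE 0.12, unadjusted p = 0.0119). Axin2 read 53.1, 63.7 and 53.2 against 78.6, 78.0 and 88.2 and differed by 0.43 (SE 0.14, unadjusted p = 0.0139). Fzd7 read 865, 725 and 807 against 937, 950 and 957 and differed by 0.25 (SE 0.09, unadjusted p = 0.0234). None of these groups overlapped, and the adjusted p of the last 3 was 0.999 each. Of the antagonists, Sfrp2 gave 0.18 (unadjusted p = 0.0485), Wif1 0.03, Dkk3 0.07, Sfrp1 0.09 and Frzb -0.27, and none passed. Smooth muscle markers had a median of 0.03 over 9 tested and fibroblast markers 0.06 over 10, and 0 passed in either list (at an unadjusted p under 0.05, 0 and 1).

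**Figure D3:**
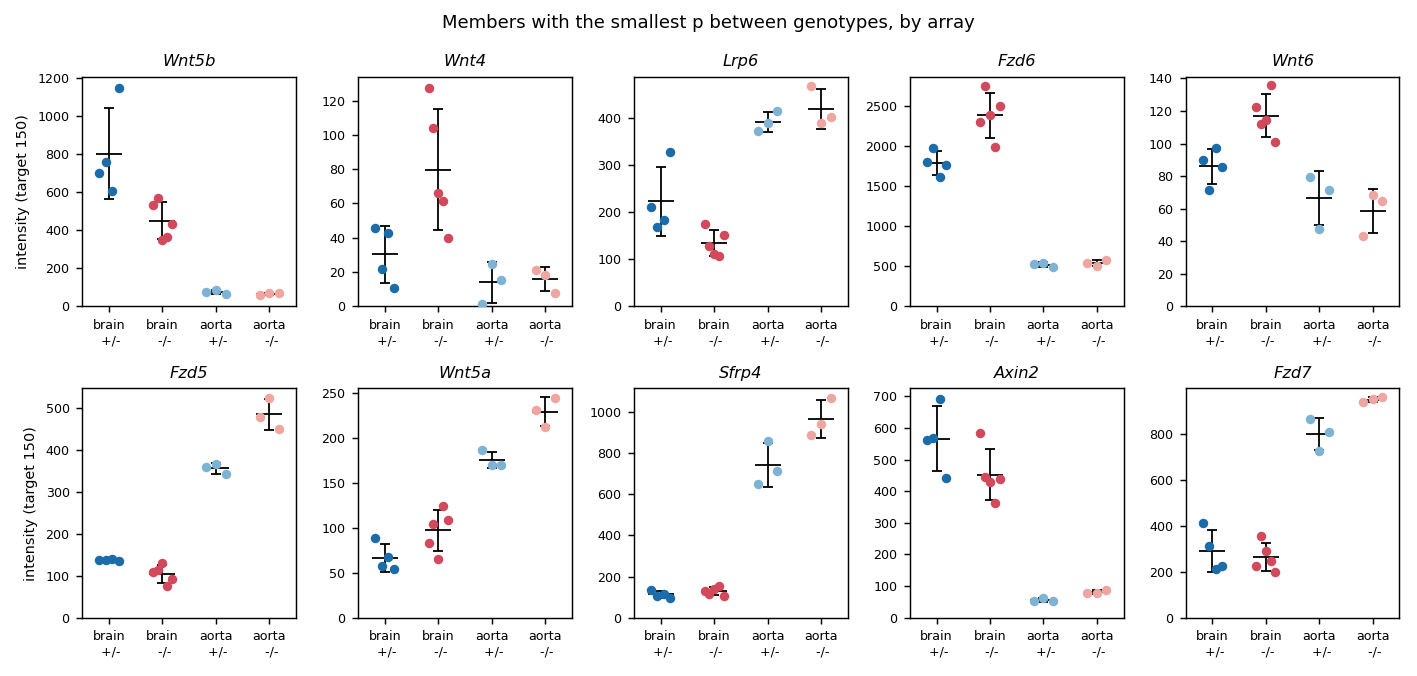
Each panel shows the linear intensity (scaled to a target of 150) of 1 gene on every array of the 4 groups as points, with the group mean as a line and the SD as bars; y axes start at 0 and differ between panels. The genes are the 5 with the smallest p in brain (upper row) and in aorta (lower row); Wnt5b is lower in all 5 Notch3 -/- brain arrays than in any Notch3 +/- brain array, and Fzd5 is apart in opposite directions in brain and aorta.

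The genotype differences of brain and aorta were set against each other in 1 fit over 15 arrays, whose interaction term is the brain difference minus the aorta difference. In limma's test, 0 of 51 tested member probe sets passed and 6 had an unadjusted p under 0.05, as did 1071 (4.76%) of all tested; over all probe sets tested 4 of 22519 passed, which is 0.0178% (7 without array 5556, 1 without 5561 or 5558 and 0 without 6166, none of them a member). Of 28 genes tested for genotype in both tissues, 12 had the same sign in both. Fzd5 had the smallest p, with -0.38 in brain, 0.43 in aorta and an interaction of -0.80 (SE 0.22, unadjusted p = 0.00159, adjusted p = 0.527), although its second set gave -0.04. Axin2 was similar, with -0.31 in brain, 0.43 in aorta and an interaction of -0.74 (SE 0.24, unadjusted p = 0.00561, adjusted p = 0.788). Lrp6 (-0.73, unadjusted p = 0.0167), Wnt5b (-0.65, unadjusted p = 0.0378) and Wnt7a (-0.64, unadjusted p = 0.0455) followed. These 5 genes were picked for the interaction after its values were seen. A difference between tissues in the response of a member to loss of Notch3 was therefore not detectable with these arrays, whose SE for that quantity had a median of 0.30.

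**Figure D4:**
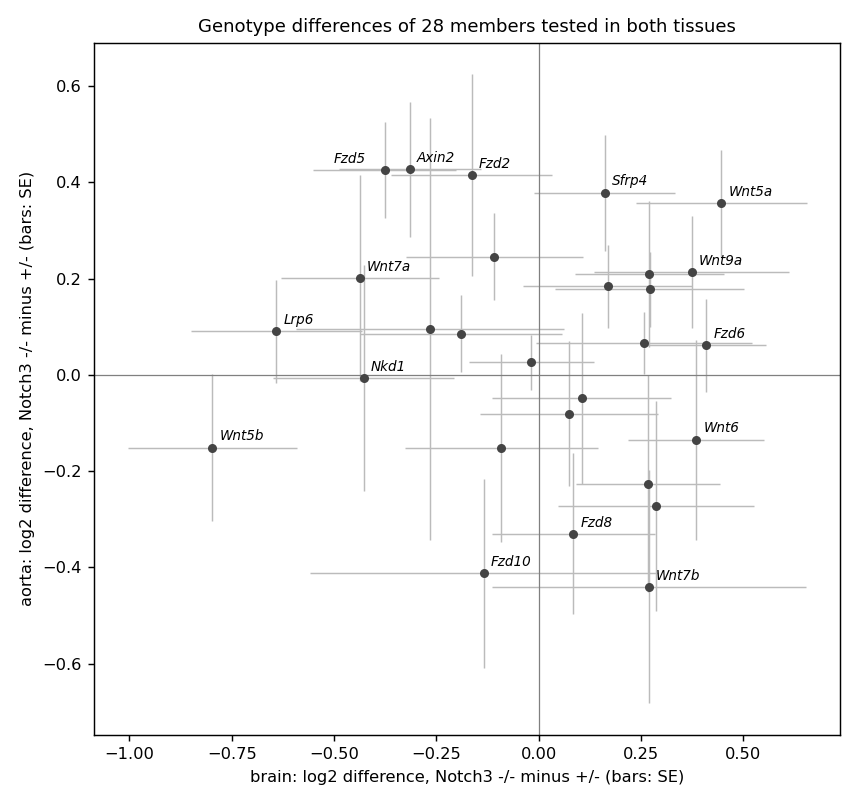
Each point is 1 of the 28 genes tested for genotype in both tissues, with its Notch3 -/- minus Notch3 +/- log2 difference in brain on the x axis and in aorta on the y axis, and SE bars. Wnt5b (-0.80, -0.15) lies farthest left and Fzd5 (-0.38, 0.43) and Axin2 (-0.31, 0.43) lie top left; none of the 28 passed in either tissue.

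Other genes of the pathway were described in 6 lists. With limma, 0 of their genes passed in either genotype comparison or in the interaction; at an unadjusted p under 0.05 there were 7 of 79 in brain (8.86%), 4 of 76 in aorta (5.26%) and 6 of 80 in the interaction (7.5%), where all probe sets gave 9.39%, 4.35% and 4.76%. The brain share was thus near that of all probe sets. In brain the smallest p values were those of Csnk1g2, a casein kinase (-0.77, SE 0.21, unadjusted p = 0.00202, adjusted p = 0.248), and of Notum, an enzyme that strips the lipid from Wnts (-0.74, SE 0.20, unadjusted p = 0.00233, adjusted p = 0.267). Between tissues, the 6 lists together had 24 higher (29.3%) and 20 lower (24.4%) of 82 tested in Notch3 +/-, and 27 (34.6%) and 22 (28.2%) of 78 in Notch3 -/-, shares near the 26.5% and 25.2%, and 33.6% and 28.9%, of all probe sets. Genes of secretion and agonists passed for 1 higher and 1 lower of 5 tested in Notch3 +/- and for 1 and 2 of 5 in Notch3 -/-; the collagen-associated Cthrc1 was higher in brain by 3.91 and 4.14, and Wls, the Wnt carrier, lower by -0.85 and -0.99. Of the co-receptors and receptor turnover genes, 4 were higher and 6 lower of 14 in Notch3 +/-, and 5 and 5 of 13 in Notch3 -/-. They include Sost, the Lrp-binding inhibitor sclerostin (-6.43 and -6.93), and the R-spondin receptor Lgr6 (-4.51 and -4.64), both high in aorta. Of the cytoplasmic genes, 9 were higher and 5 lower of 25, and 10 and 6 of 25, led by the Dishevelled gene Dvl1 (1.82 and 2.17) and casein kinase Csnk1d (1.55 and 1.65). Of the nuclear genes, 2 were higher and 3 lower of 15, and 3 and 4 of 15, among them the TCF factor Tcf7l2 (-0.72 and -1.10). Planar cell polarity genes passed for 5 higher and 2 lower of 11, and 4 and 2 of 10, with the formins Daam2 (1.67 and 1.77) and Daam1 (-1.14 and -1.31) on opposite sides. Of the reported target genes, 3 were higher and 3 lower of 12, and 4 and 3 of 10; the endothelial factor Sox17 (5.27 and 5.30) and the receptor Tnfrsf19 (4.58 and 4.49) were higher in brain, and the matricellular gene Ccn5 (-3.92 and -3.80) in aorta. Sox17 is also an endothelial gene, and most endothelial markers were brighter in the brain arrays as given above. The part of endothelium in the Sox17 difference was not tested.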

How the data were processed

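RNA of the 4 groups was hybridised to Affymetrix mouse arrays. The authors deposited 1 linear intensity per probe set and array, and the series' design text gives a scaling target of 150 and names Rosetta Resolver for their own analysis. Not given in the sources used here are the summarising algorithm, background correction, detection calls and genome build. Brain RNA was purified on columns and aorta RNA with Trizol before columns, per the labels' protocols.

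The platform annotation gave exactly 1 symbol for 34958 of the 45101 probe sets, more than 1 for 932 and no symbol for 9211; no probe set with several symbols included a member. Symbols were updated through Entrez identifiers in a RefSeq table (GRCm38.p6) for 34754 and kept for 204. Groups came from the sample titles. Values were taken as log2(intensity + 16); in each fit the 64 controls were removed and the brighter 22519 of the remaining sets, split at the median of their mean log2 value, were tested. Two-sided tests came from limma 3.58.1 under R 4.3.3, with the prior variance of eBayes following the intensity and Benjamini-Hochberg adjustment over all sets tested; the procedure was tested on simulated data. Genotypes were compared within 9 brain and within 6 aorta arrays, tissues within each genotype, and the interaction over 15 arrays.

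Every member is named at its brightest probe set by mean log2 value. Values per array or ranges are given for the 5 members with the smallest p in each genotype comparison, the 10 with the largest tissue difference that passed with 1 sign in both genotypes and the 5 brightest in each tissue; up to 3 genes of each pathway list with the smallest p may be named. The members and lists were chosen with earlier results of these data known. Alternatives were no brightness filter, a pseudocount of 1, quantile normalization, no intensity trend, 1 fit over all arrays, the 2 number series of the aorta names as a block, other probe sets and leaving out each array in turn. Tcf7 and some genes of the pathway and marker lists were not analysed here. The precision is limited by 3 to 5 arrays per group.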

Additional observations from a re-analysis of the deposited data

Results flagged for a closer look

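Among the brain values examined, a single one lay far from the others of its group. Wnt7a in the Notch3 -/- brain array C read 103.2, while the other 4 Notch3 -/- brain arrays ran from 67.9 to 76.1, so that the gap to the nearest of them was 0.769 of the whole range. It was the 1 case found in 36 groups of values examined, and chance alone flags about 1 in 20 groups of this size. Only members with the smallest p or the largest tissue difference were examined. The aorta groups were not examined, since they hold too few arrays for the rule.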

How the results depend on the processing

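No member passed in the brain, aorta or interaction comparison under any alternative or with any array left out. Between tissues, 22 to 25 genes passed in Notch3 +/- (24 as reported) and 27 to 30 in Notch3 -/- (28 as reported). These 25 counts under alternatives kept within 1.5 times the reported ones, and the 45 counts of the other comparisons were 0, as reported. Values of single genes were followed only for those with the smallest p or the largest tissue difference. Of these 497 values, 495 kept their direction and side of the threshold. At another probe set 2 reversed: Fzd6 in brain to -0.0386 and Wnt5a in aorta to -0.00195. The cause was not tested. Among all members with several tested sets, signs were mixed for 5 of 13 genes in brain and 5 of 13 in aorta. In the interaction they were mixed for 6 of 12. Between tissues they were mixed for 4 of 12 in Notch3 +/- and 6 of 12 in Notch3 -/-. Sets of Ctnnb1 passed in both directions in each genotype, and those of Nkd1 in Notch3 -/-. Over all probe sets, the 32 that passed in brain became 137 in 1 fit over 15 arrays and 18 without the brightness filter, and 10 to 38 with an array left out; the interaction's 4 ranged from 0 to 7 and the aorta's 0 reached 7. No paired analysis was possible because the groups compared share no replicate names. With 3 to 5 arrays per group and no detection calls, small differences and dim probe sets, such as those of 13 genes tested nowhere, stay below what could be measured here.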
